A study of Mus musculus with 4 samples.

Results

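Haem and iron handling was described through 8 genes, Hmox1, Blvrb, Slc40a1, Tfrc, Fth1, Ftl1, Cd163 and Slc48a1, out of the 32285 genes counted in single cells of mouse fracture callus. The genes were taken by symbol and by no limit on their level, but they were chosen with earlier results of these data known. Each of the 8 symbols matched 1 row of the count tables. The callus is the repair tissue that replaces the fracture haematoma, and the question put to the data was how the cells that clear the haematoma expressed these genes at 4 and 7 days post fracture (dpf). There were 4 libraries (control_4d, control_7d, RA_4d and RA_7d), all from wild-type C57BL/6J mice, 3 months of age. The RA groups were given K/BxN serum, which transfers an antibody-driven arthritis, and the control groups were given Vehicle. New tissue was scraped off along the bone surface and digested with collagenase. Each library was 1 pool of calluses, for which the labels and the study's methods give different numbers of mice. With 1 library per condition there was no replicate and no test, and a difference between conditions cannot be told apart from a difference between pools or library preparations.

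Macrophages that enter a haematoma take up damaged red cells, free haemoglobin and free haem. Cd163 is the surface receptor for complexes of haemoglobin with haptoglobin, and Slc48a1 (HRG1) carries haem out of the phagolysosome into the cytosol. Hmox1 encodes haem oxygenase 1, the inducible enzyme that opens haem into biliverdin, carbon monoxide and iron, and Blvrb encodes a biliverdin reductase. The freed iron is stored in ferritin, built from heavy (Fth1) and light (Ftl1) chains, or leaves the cell through ferroportin (Slc40a1), the only known iron exporter of mammals. Tfrc, the transferrin receptor, brings in iron from plasma transferrin and is known for high levels in dividing cells, erythroid cells and osteoclasts. In iron-poor cells, iron regulatory proteins bind a hairpin in some of these mRNAs, which blocks translation from a 5′ hairpin and protects the mRNA with 3′ hairpins, so an mRNA level of these genes is not a protein level.

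The hairpins are shown as a description of the genes. Some of these mRNAs were already known to hold one, so the number of the 8 with a match is no test. Transcripts of the GENCODE M21 annotation of GRCm38 (mm10) were searched on their own strand for a CAGTGN loop between 5 paired bases on each side, with G-T pairs allowed and a C just before the pairs. Of 22527 coding genes, 301 (1.34%) held such a match, as did 4 of the 8 genes. The loop is in capitals, and each site lies in a single exon. The 5′ untranslated regions of the ferritin chains and of ferroportin each held 1 match:
Fth1 5′ UTR, chr19:9982732-9982760, plus strand: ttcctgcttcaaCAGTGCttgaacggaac
Ftl1 5′ UTR, chr7:45459779-45459807, minus strand: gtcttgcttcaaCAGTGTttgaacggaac
Slc40a1 5′ UTR, chr1:45925465-45925493, minus strand: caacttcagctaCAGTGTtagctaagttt
The 3′ untranslated region of Tfrc held 4 matches on the plus strand:
Tfrc 3′ UTR, chr16:32631219-32631247: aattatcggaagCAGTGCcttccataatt
Tfrc 3′ UTR, chr16:32631598-32631626: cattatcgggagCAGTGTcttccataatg
Tfrc 3′ UTR, chr16:32631663-32631691: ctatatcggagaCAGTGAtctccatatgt
Tfrc 3′ UTR, chr16:32631710-32631738: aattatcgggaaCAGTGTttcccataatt
The genes themselves lie at chr8:75093621-75100589 (Hmox1, plus strand), chr7:27447978-27466144 (Blvrb, plus strand), chr1:45908068-45926523 (Slc40a1, minus strand), chr16:32608920-32632794 (Tfrc, plus strand), chr19:9980598-9985098 (Fth1, plus strand), chr7:45457944-45459884 (Ftl1, minus strand), chr6:124304656-124330527 (Cd163, plus strand) and chr15:97778520-97792692 (Slc48a1, plus strand).

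The kept cells numbered 4110 to 8223 per library, with 83405494 to 156567619 unique molecular identifiers (UMIs, each 1 captured molecule) in all. The median depth was 16094 to 17632 UMIs per cell. Any pair of libraries shared 5 to 15 cell barcodes. RA_4d stood apart in its haemoglobin RNA. The 4 adult globin genes summed to 659 UMIs per 1000000 UMIs (CPM) in control_4d, 640 in control_7d and 545 in RA_7d, but to 47.9 in RA_4d. A globin UMI was present in 13.5% of RA_4d cells and in 90.5% to 96.6% of the cells of the other libraries. RA_4d also held 212 granulocyte-like cells, against 27 to 65 elsewhere. The part of these differences in the results was not tested. Leaving out cells with over 1% globin UMIs changed no count of genes given for macrophage-like cells below. That step took out only 1 to 18 macrophage-like cells per library and left their globin at 10.1 CPM in RA_4d. It left 169 CPM in control_4d, 281 in control_7d and 333 in RA_7d, so it did not remove the difference between libraries.

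Clusters were named from markers, with the 8 genes and the rest of the haem and iron list kept out of the genes that built them. There were 2379 macrophage-like cells in control_4d (43.5% of its cells), 1949 in control_7d (25.4%), 1434 in RA_4d (34.9%), with the fewest, 1202 (14.6%), in RA_7d. They fell into 4 clusters. Cells high in Arg1 and Spp1 formed a Gpnmb-led and an Mmp12-led cluster, resident-like macrophages were marked by Mrc1, Folr2 and Cbr2, and MHC class II-high cells by H2-Ab1 and Cd74. The macrophage genes C1qa, Csf1r and Adgre1 were at 2391, 564 and 453 CPM over these cells, against 8.40, 5.43 and 2.50 in endothelial-like cells. The score of the macrophage marker list was 1.09 in Mmp12-led cells, near the minimum of 1 used for naming. It was 2.01 in Gpnmb-led, 2.75 in resident-like, 2.43 in MHC class II-high and 0.328 in monocyte-like cells. Pf4, a marker of the resident-like list, was among the leading genes of the Gpnmb-led cluster. The largest macrophage cluster was the Gpnmb-led one in control_4d, control_7d and RA_4d (935, 715 and 559 cells) and the resident-like one in RA_7d (367 cells, against 298 Gpnmb-led), so levels are also given within clusters. A level below is the CPM of the summed UMIs of a class in a library, ratios are of such levels, and intervals are 95% intervals that cover counting error only. Levels are not compared between genes, since counts from the 3′ end are not per length.

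With the 4 libraries summed, macrophage-like cells had the highest level of 7 of the 8 genes among 23 named classes, the exception being Tfrc, which was highest in osteoclast-like cells. In RA_7d alone Slc40a1 was also highest outside them, in osteochondral-like cells (138 CPM, against 92.6 in resident-like macrophages). Over the 4 libraries together, Hmox1 was at 2453 CPM in Arg1-high and 2149 in resident-like macrophages, at 741 in MHC class II-high macrophages and 568 in monocyte-like cells. It was at 804 in cycling myeloid cells. Arg1-high and resident-like macrophages did not separate over the libraries (842 to 3007 and 1263 to 2468), and the resident-like range lay above that of MHC class II-high cells (521 to 966). Outside the myeloid cells its highest level was 392, in lymphatic endothelial-like cells, and its lowest was 59.4, in osteochondral-like cells. The lowest of all named classes was 46.6, in mast cell- or basophil-like cells. Blvrb led in resident-like macrophages (414), followed by Arg1-high (285) and MHC class II-high (269) macrophages. The last 2 classes did not separate, with library ranges of 190 to 374 and 234 to 285. Slc40a1 was at 98.3 in Arg1-high and 91.7 in resident-like macrophages, whose library ranges overlapped (52.1 to 186 and 56.4 to 169), and at 80.8 in osteochondral-like cells (52.3 to 138). Cd163 was at 138 in resident-like macrophages, at 13.5 in MHC class II-high macrophages and at 8.42 or below in every other named class. Fth1, Ftl1 and Slc48a1 led in Arg1-high macrophages, at 22764, 14806 and 190 CPM, with resident-like macrophages next at 14520, 12575 and 170. That order is of the summed libraries. For Slc48a1 the 2 classes did not separate (126 to 220 and 127 to 182). For Ftl1 the ranges overlapped (12453 to 17684 and 10553 to 15150), but Arg1-high was above resident-like within each library. The gap was least in RA_7d (13085 and 13005). For Fth1 the Arg1-high range (18272 to 29224) lay above the resident-like one (11984 to 18184), and in RA_7d monocyte-like cells (12708) came second.

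**Figure D1:**
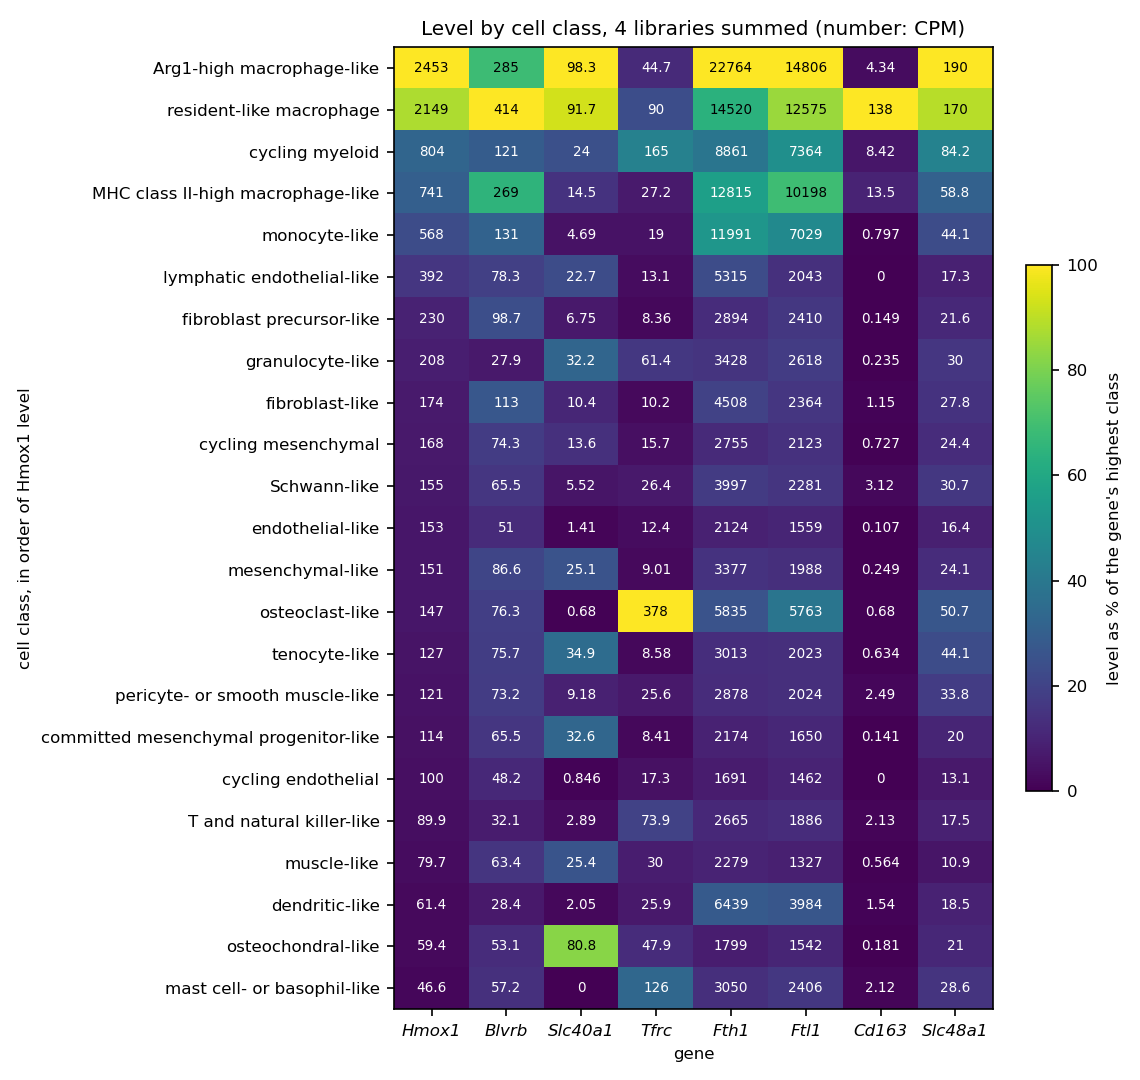
Level of the 8 genes (columns) in 23 named cell classes (rows, in order of Hmox1), with the 4 libraries summed. The number is the CPM, and the colour gives the level as a percentage of that gene's highest class. Macrophage-like classes are the highest for 7 genes, Tfrc is highest in osteoclast-like cells (378 CPM) and Slc40a1 has a second high class in osteochondral-like cells (80.8 CPM). The dendritic-like class shares its leading genes with MHC class II-high macrophages and was not compared between conditions.

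Between RA and control macrophage-like cells, the levels of the 8 genes lay closer together at 4 dpf than at 7 dpf. At 4 dpf, 0 of the 8 differed by 1.5-fold or more, where 2.41% of 12307 genes were higher and 5.62% lower by that much. At 7 dpf, 5 of the 8 did, where 5.67% of 11796 genes were higher and 2.94% lower. Tfrc and Cd163 were higher in RA, and Hmox1, Slc40a1 and Slc48a1 were lower. The calls of Tfrc and Slc48a1 were lost with the macrophage subclasses weighted equally (0.674 for Slc48a1, and Tfrc just under 1.5), which left 3. That of Tfrc was also lost with TMM scaling (1.49), with 10 CPM added (1.42) and with cycling myeloid cells counted in (1.41). Equal weighting of the subclasses also raised the count at 4 dpf above 0, as given below, so the gap between 4 and 7 dpf narrowed. From 4 to 7 dpf in control callus 3 genes passed the same limit, Slc40a1 higher and Tfrc and Cd163 lower, where 4.87% of 12508 genes were higher and 3.49% lower. In RA callus 1 gene did, Hmox1, which was lower at 7 dpf, where 9.81% of 11596 genes were higher and 4.3% lower. There the count was 3 with cycling myeloid cells counted in, by Blvrb (1.66) and Tfrc (0.556), and 4 with a mean over cells, by Blvrb (1.52), Slc40a1 (0.599) and Slc48a1 (0.625). These comparisons share libraries pairwise and are not independent of each other.

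**Figure D2:**
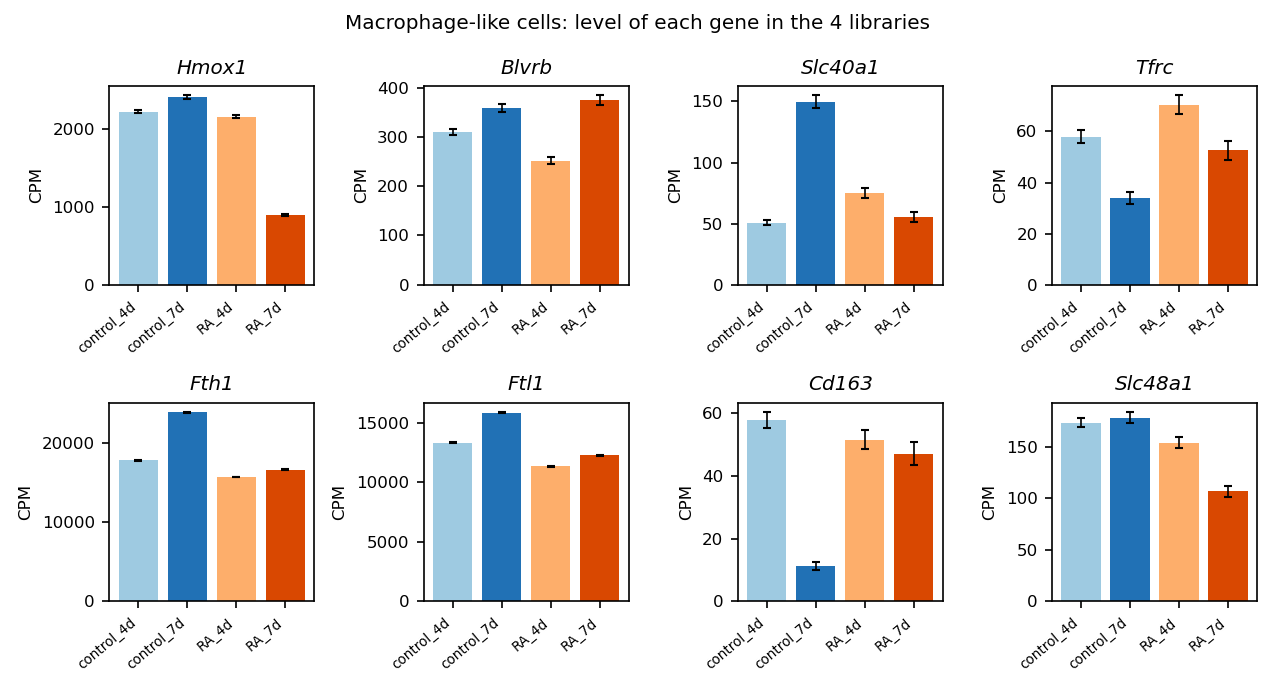
Level of each gene in all macrophage-like cells of the 4 libraries (bars, CPM, each axis from 0), with exact 95% Poisson intervals for counting error. RA_7d is the lowest of the 4 for Hmox1 (894 CPM) and Slc48a1 (107 CPM), and control_7d stands apart for Slc40a1 (150 CPM, the highest) and for Cd163 (11.2 CPM, the lowest).

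The mRNA of the first enzyme of haem breakdown was lower in RA than in control macrophage-like cells at 7 dpf. Hmox1 was at 2221 CPM in control_4d and 2408 in control_7d, and at 2153 in RA_4d and 894 in RA_7d. RA_7d was thus the single low library, while the other 3 lay between 2153 and 2408 CPM. The RA to control ratio was 0.969 (0.958 to 0.981) at 4 dpf and 0.371 (0.364 to 0.379) at 7 dpf, and 0.153% of the genes compared had a lower ratio at 7 dpf. The ratio of 7 to 4 dpf was 1.08 in control and 0.415 (0.407 to 0.424) in RA callus.

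The low Hmox1 level of RA_7d was present in each macrophage cluster and was most pronounced in the Gpnmb-led one. There Hmox1 was at 3242 CPM in control_4d and 3738 in control_7d, and at 2902 in RA_4d and 967 in RA_7d, a ratio of 0.259 (0.250 to 0.268) at 7 dpf. In resident-like macrophages it was at 2359, 2468, 2190 and 1263 in the same order, a ratio of 0.512 (0.496 to 0.528). The Mmp12-led cells were at 1176, 1418, 1665 and 656 (ratio 0.463), and MHC class II-high cells at 730, 755, 966 and 521 (ratio 0.691, 0.653 to 0.730). Of the 8 genes, 5 of 7 compared passed 1.5-fold at 7 dpf in Gpnmb-led cells (1 higher, 4 lower, where 3.91% and 3.9% of genes were higher and lower), and 4 of 8 in resident-like cells (1 higher, 3 lower, where 5.89% and 4.18% were). In MHC class II-high cells it was 3 of 8 (2 higher, 1 lower, where 4.01% and 4.02% were) and in Mmp12-led cells 2 of 7 (both lower, where 4.39% and 5.05% were). For Hmox1, RA_7d was the lowest library in all 4 clusters, whereas the order of the other 3 libraries was not the same in all clusters.

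Among single Gpnmb-led cells, those with many Hmox1 UMIs were rarer in RA_7d. With each cell thinned to 4000 UMIs, the median was 5, 4, 5 and 2 Hmox1 UMIs per cell in control_4d, control_7d, RA_4d and RA_7d. The 95th percentile was 56, 56, 51 and 14.2 UMIs in that order, and the share of cells with no Hmox1 UMI was 10.2%, 12.6%, 8.05% and 22.1%. The upper tail was therefore shorter in RA_7d by a wider margin than the median was lower, while most of its Gpnmb-led cells still held Hmox1 RNA.

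**Figure D3:**
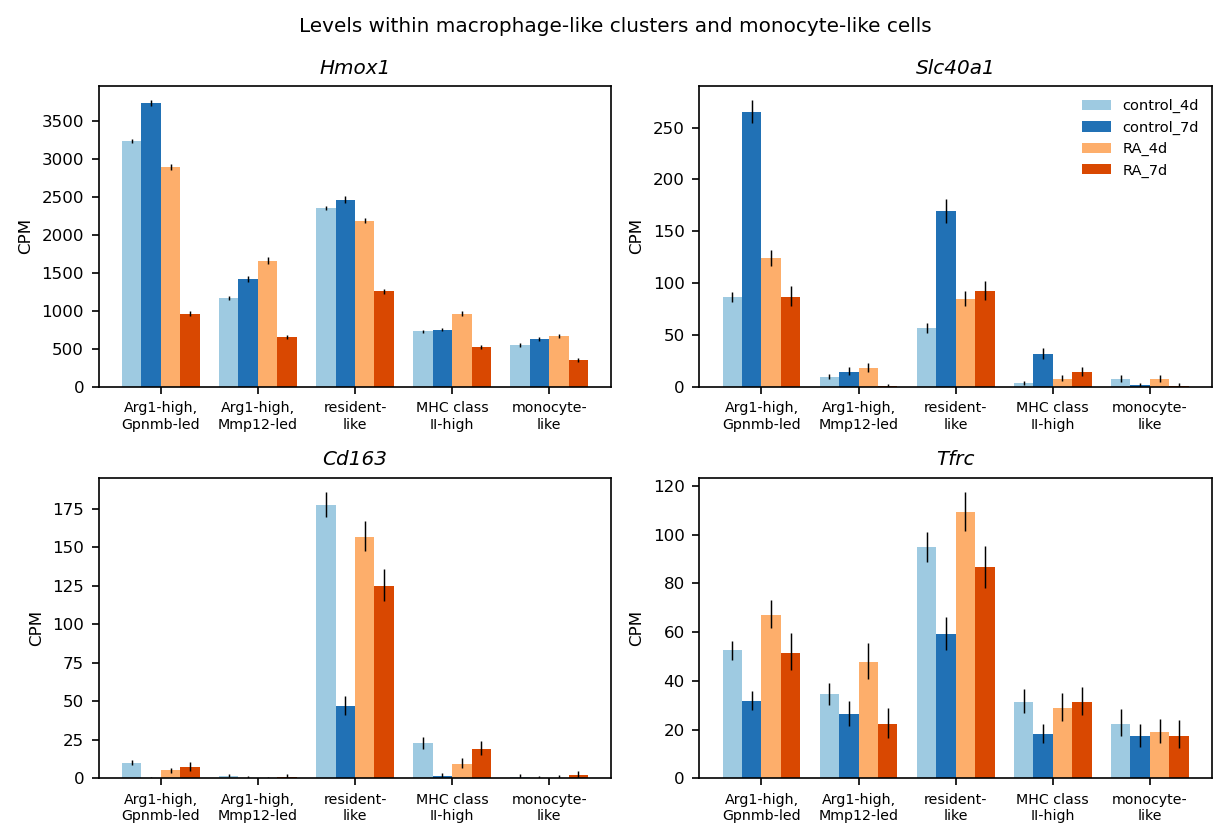
Hmox1, Slc40a1, Cd163 and Tfrc in the 4 macrophage-like clusters and in monocyte-like cells (bars, CPM from 0, 1 bar per library; lines are exact 95% Poisson intervals). For Hmox1, RA_7d is the lowest bar in every cluster. Slc40a1 is high in Gpnmb-led and resident-like cells of control_7d (265 and 169 CPM), and Cd163 is confined mostly to resident-like cells.

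Hmox1 levels counted in other classes were also lower in RA at 7 dpf, before the subtraction for free macrophage RNA given below. A class was compared where each library held 20 or more of its cells and both together held 50 UMIs, with dendritic-like cells left out. Over 20 such classes, macrophage classes included, the RA to control ratio was below 1 in 20, with an interval below 1 in 19. Of these 20, 16 were lower by 1.5-fold or more, with a median ratio of 0.547. Without the macrophage classes, the ratio was below 1 in 17 of 17. Of 3698 genes that could be compared in the same 20 classes, 1.24% were lower in all of them. Hmox1 was the only 1 (0.027%) to be lower by 1.5-fold in 16 or more, a limit taken from its own count. At 4 dpf the ratio was above 1 in 15 classes and below 1 in 5. From 4 to 7 dpf in RA callus the Hmox1 ratio was below 1 in 19 of 19 classes (16 of 16 without the macrophage classes). Of 4113 genes compared there, 0.511% were lower in all 19. Hmox1 was lower by 1.5-fold or more in 16 of these classes, and 6 genes (0.146%), Hmox1 included, were so in at least 16. In control callus the ratio of 7 to 4 dpf was above 1 in 13 of 20. All classes of a library come from the same pool and the same capture, so they are not independent samples of a condition.

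The Hmox1 level that free macrophage RNA may give in other cells was estimated from the C1q genes. The summed level of C1qa, C1qb and C1qc in a class, relative to that in macrophage-like cells, was multiplied by the macrophage Hmox1 level and subtracted. In 3 of the 17 non-macrophage classes nothing was left in at least 1 library at 7 dpf. In the other 14 the remaining level was lower in RA in 12, by 1.5-fold or more in 6, with a median ratio of 0.721. Fibroblast-like cells stayed at 0.702, fibroblast precursor-like cells at 0.741 and muscle-like cells at 0.380. Lymphatic endothelial-like cells, with 551, 507, 313 and 297 CPM before the subtraction in control_4d, control_7d, RA_4d and RA_7d, stayed at 0.638. The ratio was near 1 in endothelial-like cells (0.987) and in the committed mesenchymal progenitor-like class (1.08), and in monocyte-like cells the direction turned (3.07). The subtraction takes too much where a class transcribes C1q itself, and C1qa was at 389 CPM in monocyte-like cells. It takes too little if free RNA holds more Hmox1 for its C1q than macrophage-like cells do together, which was not tested. The count of classes left lower was not taken over all genes.

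**Figure D4:**
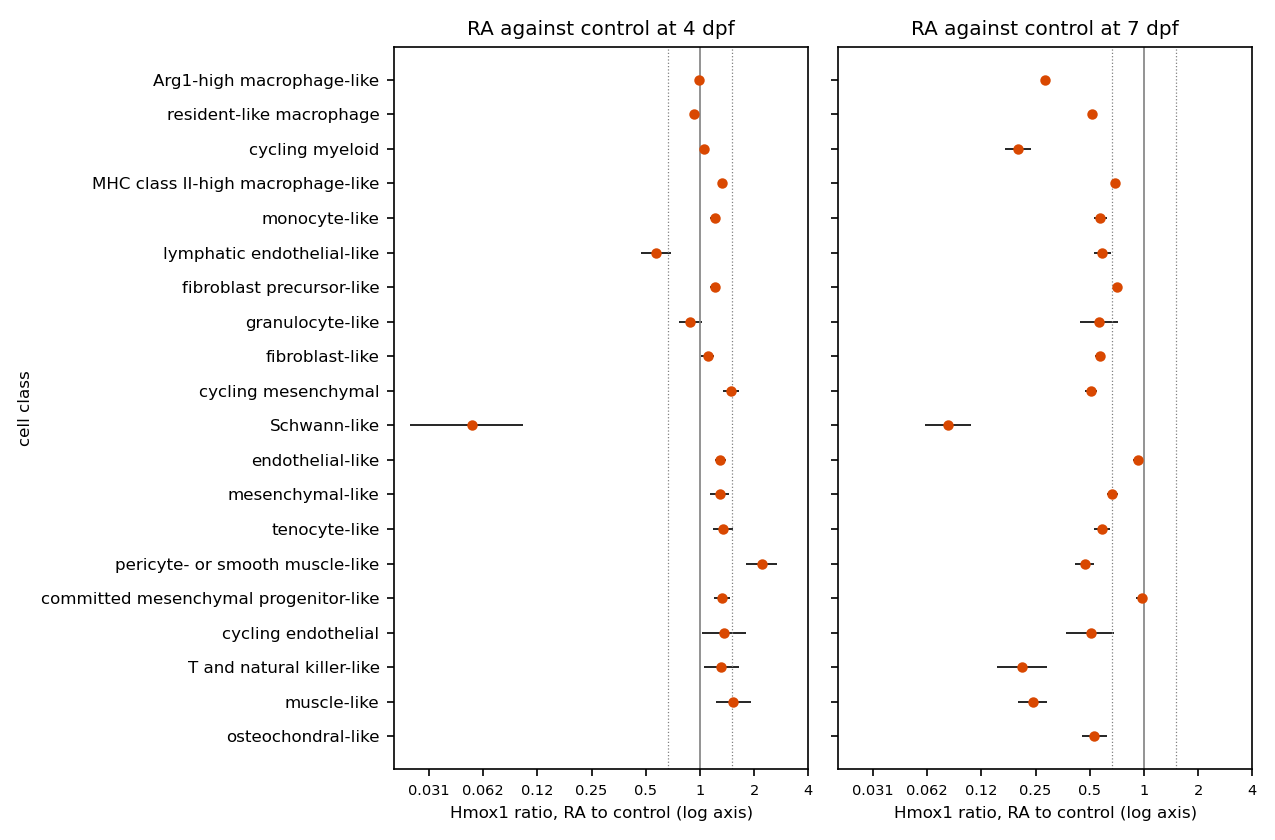
Hmox1 ratio of RA to control at 4 dpf (left) and 7 dpf (right), by class. Classes drawn have at least 20 cells in each library and 50 UMIs at 7 dpf, with dendritic-like cells left out. Points are ratios on a log axis, and lines are exact 95% intervals for counting error. Dotted lines mark 1.5-fold and the solid line 1. At 7 dpf all 20 points lie below 1, from 0.0818 in Schwann-like cells to 0.969 in committed mesenchymal progenitor-like cells. Osteoclast-like cells are not drawn, and osteochondral-like cells are drawn at 7 dpf alone. With osteoclast-like cells counted, the ratio at 4 dpf was above 1 in 15 of 20 classes.

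Blvrb, which encodes 1 of the biliverdin reductases, did not follow Hmox1. Over all macrophage-like cells it was at 310 CPM in control_4d and 358 in control_7d, and at 251 in RA_4d and 374 in RA_7d. The library lowest in Hmox1 was thus the highest in Blvrb over these cells, but not in every cluster. The RA to control ratio was 0.811 (0.785 to 0.838) at 4 dpf and 1.04 (1.01 to 1.08) at 7 dpf. In RA callus the ratio of 7 to 4 dpf was 1.49 (1.43 to 1.55), just short of the 1.5-fold limit. It was widest in Mmp12-led cells, at 210, 335, 132 and 418 CPM in control_4d, control_7d, RA_4d and RA_7d, a ratio of 7 to 4 dpf of 3.16 (2.83 to 3.54) in RA callus. Resident-like macrophages were at 432, 405, 367 and 452 CPM, with a ratio of 1.23 for the same comparison. For RA against control at 7 dpf, the Blvrb ratio was 0.905 in Gpnmb-led and 0.967 in MHC class II-high cells alone. Blvrb was thus lower in RA there, unlike in Mmp12-led and resident-like cells. Blvra, the other biliverdin reductase gene of the wider list, was at 87.8, 83.5, 98.8 and 99.0 CPM in macrophage-like cells. The values are for control_4d, control_7d, RA_4d and RA_7d, and its RA to control ratio was 1.12 at 4 dpf and 1.19 at 7 dpf.

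The mRNAs of Cd163 and Slc48a1 had opposite directions between RA and control over all macrophage-like cells at 7 dpf. Cd163 was at 57.9 CPM in control_4d and 11.2 in control_7d, and at 51.5 in RA_4d and 47.1 in RA_7d over macrophage-like cells. Here control_7d was the single low library, and the ratio of 7 to 4 dpf was 0.193 (0.169 to 0.220) in control and 0.914 (0.829 to 1.01) in RA callus. The RA to control ratio was 0.890 (0.826 to 0.958) at 4 dpf and 4.22 (3.65 to 4.89) at 7 dpf.

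The ratio was smaller within resident-like macrophages, which held most Cd163. They made up 451 of 1949 macrophage-like cells in control_7d and 367 of 1202 in RA_7d. Within them Cd163 was at 178, 47.0, 157 and 125 CPM in control_4d, control_7d, RA_4d and RA_7d, a ratio of 2.66 (2.29 to 3.11) at 7 dpf. With each cell thinned to 4000 UMIs, 23.6%, 10.2%, 21.8% and 20.4% of resident-like cells held a Cd163 UMI, against 0% in Mmp12-led cells of all 4 libraries. MHC class II-high cells were at 22.7, 1.66, 9.56 and 19.4 CPM, and control_7d was the lowest there too. Over all libraries the resident-like class was at 1971 CPM of Mrc1, 436 of Folr2 and 467 of Cbr2, and whether the same kinds of resident-like cell were captured in each library was not tested.

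Slc48a1, the lysosomal haem transporter, was at 173 CPM in control_4d and 178 in control_7d, and at 154 in RA_4d and 107 in RA_7d. RA_7d was again the low library. The RA to control ratio was 0.888 (0.851 to 0.927) at 4 dpf and 0.599 (0.565 to 0.636) at 7 dpf. Gpnmb-led cells had the highest levels, at 254, 269, 211 and 135 CPM (ratio 0.503 at 7 dpf), and resident-like cells had a ratio of 0.700 (0.630 to 0.777). In Mmp12-led cells the ratio at 7 dpf was 1.01 (0.870 to 1.18).

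Ferroportin mRNA was higher at 7 than at 4 dpf in control callus, and in RA callus its direction depended on the cluster. Slc40a1 was at 50.9 CPM in control_4d and 150 in control_7d, and at 75.0 in RA_4d and 55.4 in RA_7d. The high library was control_7d, and both RA libraries lay between the 2 control libraries. The ratio of 7 to 4 dpf was 2.94 (2.78 to 3.12) in control and 0.739 (0.678 to 0.805) in RA callus. The latter was 1.05 with the subclasses weighted equally, and 0.701 in Gpnmb-led, 1.09 in resident-like and 1.84 in MHC class II-high cells alone. The RA to control ratio was 1.47 (1.38 to 1.58) at 4 dpf and 0.370 (0.342 to 0.400) at 7 dpf.

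Control_7d was also the highest library in both clusters with the most Slc40a1. Gpnmb-led cells were at 86.5, 265, 124 and 87.0 CPM in control_4d, control_7d, RA_4d and RA_7d, and resident-like cells at 56.4, 169, 85.0 and 92.6. Their RA to control ratios at 7 dpf were 0.328 (0.290 to 0.369) and 0.547 (0.486 to 0.615). Mmp12-led cells had little Slc40a1 in any library (0.411 to 18.1 CPM), and 1 UMI in the 219 cells of RA_7d against 59 UMIs in 347 cells of control_7d gave a ratio of 0.0281 (0.000699 to 0.163). Per cell, a Slc40a1 UMI was present in 11.8%, 24.5%, 16.3% and 12.4% of Gpnmb-led cells after thinning, and in at most 1.21% of endothelial-like cells.

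In several mesenchymal classes Slc40a1 was higher in RA than in control at 7 dpf. Over 15 classes compared, macrophage classes included, it was higher in 7 and lower in 8, and in fibroblast-like cells the ratio was 0.661. Osteochondral-like cells, which bear the cartilage and bone matrix genes of the callus, were at 52.3 CPM in control_7d (370 cells) and 138 in RA_7d (218 cells), a ratio of 2.65 (2.37 to 2.96). At 4 dpf they were only 11 and 19 cells, with 14.0 and 34.8 CPM. Committed mesenchymal progenitor-like cells were at 8.58 in control_4d and 20.2 in control_7d, and at 14.0 in RA_4d and 56.7 in RA_7d, a ratio of 2.81 (2.47 to 3.20) at 7 dpf. Tenocyte-like cells were at 11.4, 34.6, 30.5 and 46.2 (ratio 1.33, 1.13 to 1.58), and cycling mesenchymal cells at 8.31, 10.2, 7.47 and 25.7 (ratio 2.52). The C1q estimate for macrophage RNA was in RA_7d 0.398 CPM for the osteochondral-like and 0.218 for the committed mesenchymal progenitor-like class. Whether free RNA holds C1q and Slc40a1 in the proportion of macrophage-like cells was not tested. Macrophage-like cells supplied 79.6%, 59.9%, 69.5% and 18.4% of all Slc40a1 UMIs in control_4d, control_7d, RA_4d and RA_7d. Their share of the UMIs of all genes was 33.1%, 16.1%, 25.4% and 9.13% in that order. In RA_7d most ferroportin mRNA was thus outside macrophage-like cells, though their part of it was above their share of all UMIs. Lymphatic endothelial-like cells resembled macrophages in having their highest level in control_7d (48.8 CPM, against 14.5 in RA_7d), while the 4 dpf libraries held only 1 and 2 UMIs in these cells.

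**Figure D5:**
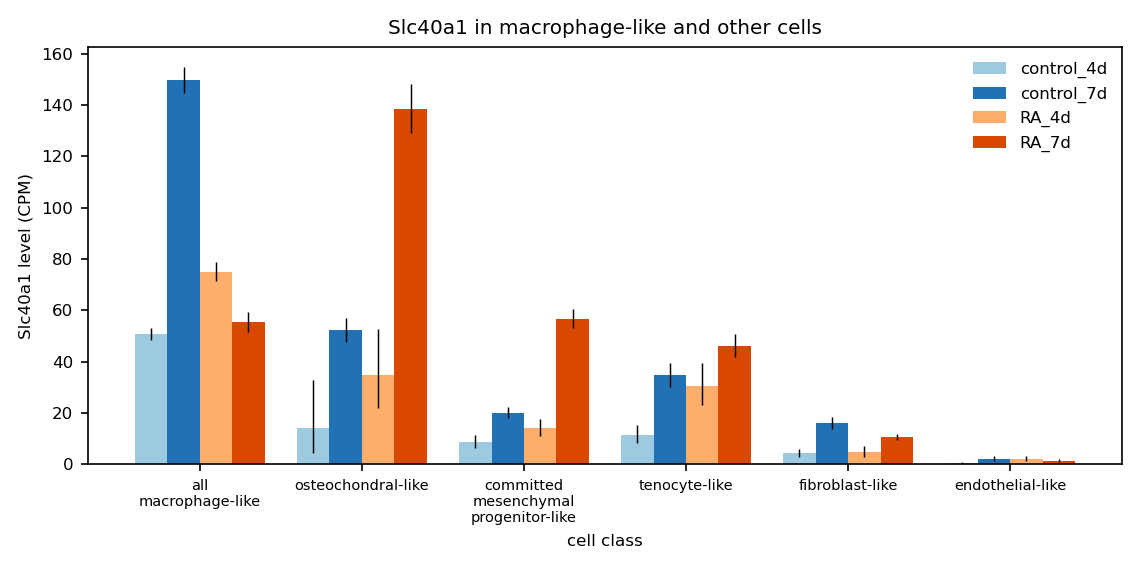
Slc40a1 level in all macrophage-like cells and in 5 other classes (bars, CPM from 0, 1 bar per library; lines are exact 95% Poisson intervals). The highest macrophage bar is control_7d (150 CPM), whereas the highest osteochondral-like and committed mesenchymal progenitor-like bars are RA_7d (138 and 56.7 CPM).

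Transferrin receptor mRNA in macrophage-like cells was lower at 7 dpf than at 4 dpf and higher in RA than in control at both times. Tfrc was at 57.9 CPM in control_4d and 34.0 in control_7d, and at 70.4 in RA_4d and 52.6 in RA_7d. The RA to control ratio was 1.22 (1.14 to 1.30) at 4 dpf and 1.55 (1.40 to 1.71) at 7 dpf, and the ratio of 7 to 4 dpf was 0.587 (0.540 to 0.638) in control and 0.746 (0.683 to 0.815) in RA callus. Control_7d, the library with the most Slc40a1 in macrophages, was the one with the least Tfrc. At 7 dpf the RA to control ratio was 1.63 (1.34 to 1.96) in Gpnmb-led, 1.46 (1.26 to 1.71) in resident-like and 1.74 (1.31 to 2.33) in MHC class II-high cells. In Mmp12-led cells it was 0.844 (0.596 to 1.18), which includes 1. Other directions turned in MHC class II-high cells alone, with an RA to control ratio of 0.919 at 4 dpf. There the ratio of 7 to 4 dpf in RA callus was 1.08.

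The cells with the most Tfrc were osteoclast-like, at 294 CPM in control_4d and 418 in control_7d, and at 417 in RA_4d and 379 in RA_7d. The last value rests on 9 cells, so RA and control were compared for these cells at 4 dpf alone, with a ratio of 1.42 (1.31 to 1.54). Cycling myeloid cells came next, at 137, 102, 233 and 144 CPM (ratio 1.70, 1.56 to 1.86, at 4 dpf). T and natural killer-like cells were at 125, 55.0, 61.9 and 71.3 CPM, with control_4d the highest. Slc40a1 in osteoclast-like cells was at 0.921, 0.735, 0.483 and 0 CPM, the last from 9 cells, so the class with the most Tfrc was among those with the least Slc40a1.

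Ferritin mRNA differed by less than 1.5-fold in each of the 4 comparisons of all macrophage-like cells. Fth1 was at 17795 CPM in control_4d and 23845 in control_7d, and at 15701 in RA_4d and 16613 in RA_7d. Ftl1 was at 13325, 15850, 11334 and 12258 CPM in the same order. Control_7d was the highest for both chains, with RA to control ratios of 0.697 (0.693 to 0.700) for Fth1 and 0.773 (0.769 to 0.778) for Ftl1 at 7 dpf. The clusters did not act alike for the heavy chain, since Fth1 at 7 dpf had a ratio of 0.630 in Gpnmb-led, 0.659 in resident-like and 1.14 (1.13 to 1.16) in Mmp12-led cells. Ftl1 shares reads with a near-identical copy, Ftl1-ps1, which was counted at 52.2 to 146 CPM over all cells, so the split between them is uncertain.

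For the callus as a whole, levels were also taken with the same mix of classes in every library. Over all cells Hmox1 was at 890 CPM in control_4d and 562 in control_7d, and at 745 in RA_4d and 195 in RA_7d. With each class set to its share of UMIs in control_4d, the levels were 890, 1040, 903 and 398, so RA_7d stayed the lowest while control_7d moved to the highest. Cd163 over all cells was at 20.3, 2.16, 13.6 and 5.31 CPM, and at 20.3, 4.91, 16.4 and 16.2 with the control_4d shares. Slc40a1 was at 21.2, 40.1, 27.4 and 27.5 over all cells, and at 21.2, 64.7, 32.0 and 29.2 with those shares. Macrophage-like cells supplied 82.6%, 68.8%, 73.5% and 41.9% of Hmox1 UMIs in control_4d, control_7d, RA_4d and RA_7d. Their share of the UMIs of all genes was 33.1%, 16.1%, 25.4% and 9.13% in that order.

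The wider haem and iron list (68 genes, the 8 included) had no common direction in macrophage-like cells. At 4 dpf 3 of 58 genes compared were higher in RA and 1 lower, and at 7 dpf 6 of 56 were higher and 6 lower, against the shares of all genes given above. Without the 8 genes, 4 of 48 were higher and 3 lower at 7 dpf. The median ratio of the list was 1.00 at 4 dpf and 0.989 at 7 dpf. By group, the 4 genes of iron sensing and, beside the ferritins, the 3 genes compared of iron storage and release all stayed within 1.5-fold at 7 dpf. There Aco1 and Ireb2, the iron regulatory proteins, had ratios of 1.01 and 1.08, and Ncoa4, which delivers ferritin for breakdown, a ratio of 1.34.

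Spic, a transcription factor of iron-recycling macrophages, was ordered like Slc40a1 between the controls. It was at 19.7 CPM in control_4d and 58.9 in control_7d, and at 52.8 in RA_4d and 36.1 in RA_7d. Its RA to control ratio was 2.69 (2.44 to 2.95) at 4 dpf and 0.613 (0.553 to 0.679) at 7 dpf. Gclm, the modifier subunit of the rate-limiting enzyme of glutathione synthesis, was at 182, 243, 133 and 115 CPM (ratio 0.471 at 7 dpf), and RA_7d was the lowest library as for Hmox1. Slc7a11, the cystine importer, was at 65.4, 140, 65.5 and 112 CPM, with both 7 dpf libraries above both 4 dpf libraries.

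Genes of the list that were higher in RA_7d macrophage-like cells included some that are stronger in other classes. Cp (ceruloplasmin, a ferroxidase) was at 5.49 CPM in control_7d and 26.5 in RA_7d, a ratio of 4.82, but at 96.7 CPM in fibroblast-like and 261 in lymphatic endothelial-like cells over all libraries. Hp (haptoglobin) was at 22.4 and 44.9 CPM (ratio 2.01), against 322 in monocyte-like and 876 in granulocyte-like cells. The part of RNA from those cells in the macrophage values was not tested. Alas1, the first enzyme of haem synthesis, was at 64.8 and 97.4 CPM, with an interval of their ratio from 1.40 to 1.62. Trf (transferrin), which was highest in resident-like macrophages (367 CPM), was at 217, 261, 154 and 318 CPM in control_4d, control_7d, RA_4d and RA_7d. No gene of the siderophore and lactoferrin group reached 20 CPM in macrophage-like cells at 7 dpf. At 4 dpf, 2 of its 3 genes compared were higher in RA by 1.5-fold or more, with a median ratio of 4.85. From 4 to 7 dpf in RA callus all 3 were lower by that much. RA_4d was the library with 212 granulocyte-like cells, and the part of RNA from them was not tested.

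Across the 23 named classes, the genes most like each of the 8 were found by Pearson's r of log2 CPM, with 10 CPM added, over 7562 genes. These values describe shared patterns over classes that share libraries, and carry no test. For Hmox1 they were Mfsd1 (r = 0.946), Tfe3 (0.923) and Acp2 (0.916), and for Blvrb Pikfyve (0.926), Mfsd11 (0.920) and Ctsb (0.913). For Cd163 they were Cd209f (0.944), Cbr2 (0.901) and Folr2 (0.874), the last 2 being markers used to name resident-like macrophages. For Slc48a1 they were Vps35l (0.928), Ctsd (0.911) and Grn (0.910). For Tfrc they were Chchd10 (0.861), Sms (0.838) and Sec11c (0.830). Slc40a1 had no close match, with Fam20c (0.692), Rab31 (0.658) and Nfxl1 (0.650) the nearest. Fth1 and Ftl1 were near each other (0.958), and Psap was among the nearest to both (0.968 and 0.975).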

How the data were processed

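Per the labels and the study's methods, the authors loaded 10000 cells per library with 3′ chemistry, aligned reads to mm10 with Cell Ranger 7.0.1 and deposited raw UMI counts per gene and barcode. Cells with 4000 to 50000 UMIs, 2000 to 7000 features and at most 8% mitochondrial UMIs were kept (25479 of 34038), as in the study. Libraries were integrated by canonical correlation analysis (30 dimensions) in Seurat 5.3.0 with 2000 variable genes, 15 principal components and Louvain clustering at resolution 1. Clusters were named from marker lists (score at least 1, lead at least 0.35, at least 3 markers), with thresholds set after the clusters were seen, so names need not match the study's. The design counted cycling macrophages as macrophage-like, but the cycling myeloid cluster scored higher for osteoclast markers (1.14) than for macrophage markers (0.666) and was left out after this was seen, with its inclusion as an alternative. Because cells are not replicates, UMIs were summed by class and library. Ratios carry exact conditional intervals and levels exact Poisson intervals, taken with scipy 1.17.1. Genes needed 50 UMIs over both libraries and classes 20 cells in each. Genes sharing a pattern were taken as the 3 with the highest r. Up to 3 per list group were taken by the largest absolute log2 ratio of RA to control at 7 dpf. They had to reach 20 CPM in the higher library. The 8 genes, the lists and the markers were chosen with earlier results of these data known. Doublets called by Scrublet (592 cells) were kept in the main values and left out in an alternative. Macrophage-like clusters held at most 0.218% doublets, so leaving doublets out could move the macrophage ratios little. The share was 36.4% in a smaller fibroblast-like cluster of 316 cells and 7.76% in cycling mesenchymal cells. Ratios of classes outside macrophage-like cells were not retaken without doublets. Other alternatives were a looser cell filter (1000 UMIs, 500 features, 15%), no integration, resolutions of 0.5 and 2, listed genes among the variable genes, TMM scaling, equal weight of cells or of subclasses, minimums of 10 or 200 UMIs and a pseudocount of 10 CPM.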

Additional observations from a re-analysis of the deposited data

Results flagged for a closer look

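Some ratios in macrophage-like cells pointed opposite ways under the same comparison, with intervals on either side of 1. With 1 library per condition, the difference between the 2 ratios was not tested in any case. For RA against control, Slc40a1 was at 1.47 at 4 dpf and 0.370 at 7 dpf. Cd163 was at 0.890 at 4 dpf and 4.22 at 7 dpf. Blvrb was at 0.811 at 4 dpf and 1.04 at 7 dpf, a smaller gap. Its ratio at 7 dpf was 0.905 in Gpnmb-led and 0.967 in MHC class II-high cells alone, so the opposition was lost there. For 7 against 4 dpf, Hmox1 was at 1.08 in control and 0.415 in RA callus, but the control ratio was 0.978 with a mean over cells, on the same side as RA. Slc40a1 was at 2.94 in control and 0.739 in RA callus, but the RA ratio was 1.05 with macrophage subclasses weighted equally and 1.09 in resident-like cells alone, so the opposition was lost there.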

How the results depend on the processing

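No paired analysis was possible because each condition has 1 library and the labels number no replicates. The number of the 8 genes past 1.5-fold changed mainly with the weight given to the macrophage clusters. For RA against control at 4 dpf (0 of 8) it was 1 with a mean over cells and 2 with subclasses weighted equally. Each cluster alone, a choice made after seeing the data, gave 1 of 8 in Gpnmb-led and 2 of 7 in Mmp12-led cells. In resident-like cells it was 1 of 8 and in MHC class II-high cells 1 of 7. In that order of clusters, 3.11%, 4.26%, 2.87% and 3.82% of genes were higher by that much. Lower were 4.86%, 5.65%, 4.81% and 5.33%. For RA against control at 7 dpf (5 of 8) it was 3 with subclasses weighted equally. It was 2 of 7 in Mmp12-led and 3 of 8 in MHC class II-high cells alone, with the shares of all genes given above. For 7 against 4 dpf in RA callus (1 of 8) it was 4 with a mean over cells and 3 with cycling myeloid cells counted in. Alone, Gpnmb-led cells gave 3 of 8, Mmp12-led cells 5 of 7 and MHC class II-high cells 3 of 8. In that order, 6.82%, 9.03% and 6.66% of genes were higher and 6.93%, 9.32% and 6.89% lower by that much. Shares of all genes were taken for the clusters alone and not for the other alternatives. For 7 against 4 dpf in control callus (3 of 8) no alternative moved the count by over 1.5 times. The design had counted cycling macrophages in, and leaving the cycling myeloid cluster out was decided once its markers were seen. Of the 5 genes past the limit at 7 dpf, the RA to control ratios of Tfrc (0.844) and Slc48a1 (1.01) turned direction in Mmp12-led cells alone, as did that of Fth1 (1.14), which was not past the limit. In all, 8 of 384 ratios turned direction under alternatives other than those chosen after seeing the data and 20 of 186 under the others. The former were Hmox1 at 4 dpf (1.01 with a mean over cells, 1.07 with subclasses weighted equally), Cd163 from 4 to 7 dpf in RA callus (1.07 and 1.30), and, with 1 of these weightings each, Hmox1 (0.978) and Slc48a1 (0.941) in control callus and Fth1 (0.995) and Slc40a1 (1.05) in RA callus. The latter included Cd163 (2.02) and Slc40a1 (1.84) from 4 to 7 dpf in RA callus in MHC class II-high cells and Hmox1 at 4 dpf (1.42) in Mmp12-led cells. The causes were not tested. Of 384 ratios under alternatives other than those chosen after seeing the data, 374 kept their side of the 1.5-fold limit. So did 160 of 186 under the alternatives chosen after seeing the data. The 384 ratios include those of alternatives that changed only the minimum of UMIs. These could neither turn a ratio nor move it past the limit, since all 8 genes passed every minimum in macrophage-like cells. The counts of 8 and 374 of 384 thus include ratios that could not change. Under the alternatives not chosen after seeing the data, the RA to control ratio at 7 dpf was 0.357 to 0.463 for Hmox1. It was 0.356 to 0.412 for Slc40a1 and 2.70 to 6.94 for Cd163. The count of genes highest in a macrophage-like class was 7 in every alternative run. With 1 library per condition the spread between mice is unknown, and genes with few UMIs have wide intervals.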

Other observations

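Within resident-like macrophages, the cells that held a Cd163 UMI after thinning to 4000 UMIs were compared with those that did not, a split chosen after values were seen. It gave 143 against 464 cells in control_4d, then 46 against 405 in control_7d, and 84 against 301 in RA_4d and 75 against 292 in RA_7d. Tfrc was higher in the cells with a Cd163 UMI in each library, by ratios of 1.22 (0.902 to 1.63), 1.91 (1.12 to 3.13), 2.04 (1.47 to 2.81) and 1.77 (1.21 to 2.55), the first including 1. Fth1 was lower in them, by 0.808, 0.963, 0.911 and 0.787 in the same order. Hmox1 differed little, at 1.09, 1.16, 1.06 and 0.892, and the last 2 intervals included 1. Cells of a library are not replicates, so these ratios describe the libraries.

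Cycling myeloid cells, which were not counted with the macrophage-like cells, had a wide range of Slc40a1, at 9.99 CPM in control_4d and 73.2 in control_7d, and at 24.6 in RA_4d and 0 in RA_7d. The last value comes from 27 cells, with no UMI, where 3 UMIs would be 5.61 CPM and the exact 95% Poisson limit is 6.90. Hmox1 in these cells was at 694, 1446, 735 and 290 CPM in the same order, with a ratio of 0.200 (0.169 to 0.236) for RA against control at 7 dpf.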
